A study of Mus musculus with 32 samples.

Results

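MicroRNAs (miRNAs) of the miR-34 and miR-449 family were followed from undifferentiated mouse embryonic stem (ES) cells to cardiomyocytes on 2 array platforms. The members were the 6 names miR-34a, miR-34b-5p, miR-34b-3p, miR-34c, miR-34c* and miR-449a. They were found by their names in the value tables of both platforms, and all 6 were among the 608 mouse miRNAs that the Affymetrix table (609 miRNAs) and the Febit table (710 miRNAs) share. The members were taken by name and not by a cut on measured values. Earlier results of these data were known when they were chosen.

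The cells were ES-D3 cells of the clone αPIG44, which carries the alpha-MHC-Pac-IRES-EGFP vector, so that the cardiac α-MHC promoter drives puromycin resistance and a green reporter. The controls carried the same vector. Day 0 samples were undifferentiated ES cells that were propagated on mouse embryonic fibroblasts and then kept on gelatin for 48 h. Day 12 samples were Cor.At cardiomyocytes from embryoid bodies that received puromycin from day 9, and day 19 and day 26 samples were cardiomyocytes after longer culture. In the study's methods the cells were seeded onto fibronectin-coated dishes at day 12 and cultured further there. The sample descriptions of days 19 and 26 give a longer culture in spinner flasks instead, so the groups are called by their day alone. All cells descend from 1 clone, and a selection by the α-MHC promoter keeps cells that use this promoter. Each day had 2 samples (a and b, described as biological replicates), and the same 8 RNA samples were measured on the Affymetrix GeneChip miRNA array and on the Febit Geniom Biochip, which carries 8 features per miRNA.

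A miRNA is a short RNA that guides a silencing complex to messenger RNAs, mostly through its seed, the bases 2 to 8 from its 5′ end. The genes of the miR-34 family are known targets of the tumour suppressor p53, and their 5p strands repress messages for cell cycle and survival factors such as cyclin-dependent kinases and Bcl2. In the mouse heart, miR-34a is known to increase with age. The miR-449 genes are best known from multiciliated cells, where miR-34 and miR-449 act together.

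A mature RefSeq sequence (build GRCm38.p6) was matched for 5 of the 6 members, and these sequences are shown because they define the family. The seed is in capitals.
miR-34a: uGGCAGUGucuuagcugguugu
miR-34b-5p: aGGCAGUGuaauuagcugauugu
miR-449a: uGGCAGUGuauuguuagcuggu
miR-34b-3p: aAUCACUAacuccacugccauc
miR-34c*: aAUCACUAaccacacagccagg

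The first 3 sequences share 1 seed, which 4 of the 1679 mature names in the table carry. Beyond the members this was miR-449c-5p. No mature sequence was matched for miR-34c, so the count of 4 does not cover this member. The first 9 bases of miR-34a and miR-449a are identical, and the sequences have the same base at 15 of 22 positions. The last 2 sequences are the opposite strands of the miR-34b and miR-34c hairpins, and they share another seed, which no further mature name in the table carries. They are identical over their first 10 bases and at 17 of 22 positions. A probe for one of these strands therefore differs from the other at few bases. How far the probes of either platform cross-hybridise was not tested.

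The mature miR-34a lies at chr4:150068473-150068494 on the plus strand, and no other gene in the RefSeq table overlaps its hairpin. The hairpins of miR-34b and miR-34c lie on the minus strand of chromosome 9, 451 bases apart, inside the spans of the protein-coding genes Hoatz and Btg4. The mature strands there are miR-34b-5p at chr9:51103610-51103632, miR-34b-3p at chr9:51103574-51103595 and miR-34c* at chr9:51103044-51103065. Mature miR-449a lies at chr13:113037549-113037570 on the plus strand, inside the span of Cdc20b. The hairpin of miR-34b is shown since both of its arms, here in capitals, are members, and their values can be set side by side.
mir-34b: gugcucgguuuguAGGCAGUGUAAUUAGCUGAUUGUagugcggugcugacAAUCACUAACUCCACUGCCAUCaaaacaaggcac

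The values reported first are those after variance stabilization normalization (VSN), on a log2 scale. The medians of the 8 arrays over the 608 miRNAs ranged from 2.26 to 2.70 on Affymetrix and from 6.32 to 6.82 on Febit. The scales differ, so levels were compared only within a platform and for 1 miRNA at a time. In the raw Febit files the array medians were between 932 and 996 on 7 arrays and 228 on day 26 b.

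Differences between days were tested with limma on each platform (2 samples per day, 4 residual degrees of freedom), with p-values adjusted by Benjamini-Hochberg over the 608 miRNAs, and a difference was called at an adjusted p under 0.05. Against day 0, 2 of the 6 members were called on Affymetrix at day 12, where 25.3% of all tested miRNAs were called. At day 19 it was 1 member, with 27.1% of all miRNAs called, and at day 26 again 1 member, with 31.4%. On Febit 1 member was called in each of the 3 comparisons, where 12.3%, 7.24% and 9.21% of all miRNAs were called at days 12, 19 and 26. The members as a group were thus called at shares near those of all miRNAs. Between days 12 and 19, no member was called on Affymetrix (0.329% of all miRNAs) and 1 on Febit (13.5%). No member was called between days 12 and 26 (3.29% on Affymetrix and 9.05% on Febit) or between days 19 and 26 (0.0% on both platforms). Without adjustment, p between days 19 and 26 was under 0.05 for 1 member and 26 of 608 miRNAs on Febit, and for 1 member and 79 of 608 on Affymetrix. Between days 12 and 26 this held for 2 members and 174 of 608 miRNAs on Febit, and for no member and 96 of 608 on Affymetrix. Between days 12 and 19 on Affymetrix it held for 2 members and 82 of 608 miRNAs, and at day 12 against day 0 on Affymetrix for 5 of the 6 members and 212 of 608. The median log2 difference of all tested miRNAs from day 0 was 0.20 at day 12, 0.12 at day 19 and 0.24 at day 26 with Affymetrix, while with Febit it stayed between -0.05 and 0.08.

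Markers of the labelled cell types were called between day 0 and day 26. On Affymetrix 9 of 14 ES cell miRNAs were called lower and 5 of 6 striated muscle miRNAs higher. Of all 608 miRNAs, 50 were called lower there and 141 higher (31.4% in either direction). On Febit 6 ES cell miRNAs were called lower and 5 striated muscle miRNAs higher. Of all 608 miRNAs, 9 were called lower on Febit and 47 higher (9.21% in either direction). The 1 ES cell marker called higher was miR-302d on Affymetrix, by 2.36 ± 0.67 (log2 fold change ± SE, adjusted p = 0.0163).

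**Figure D1:**
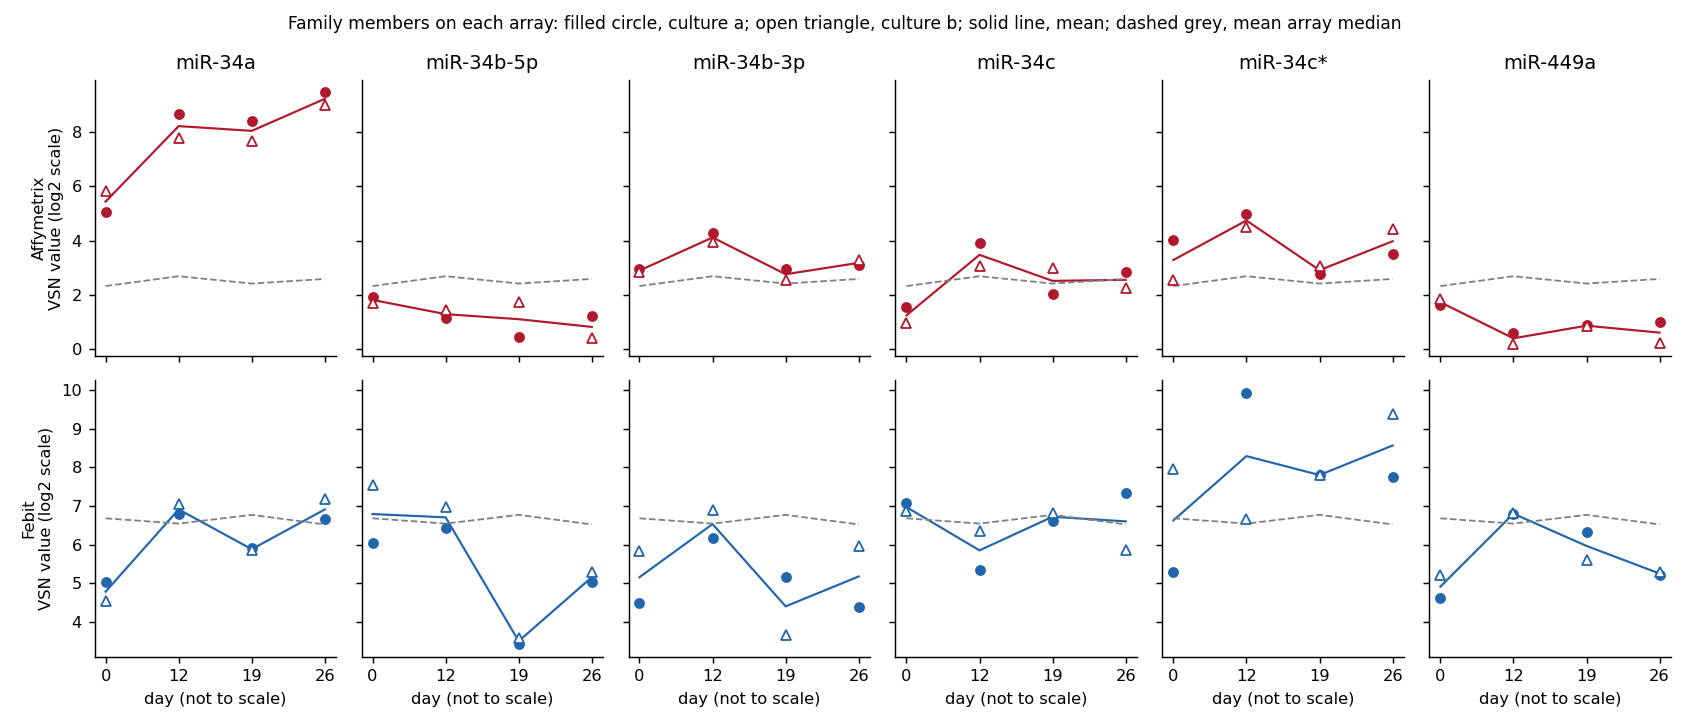
VSN values (log2 scale) of the 6 members on the 8 arrays of each platform by day; filled circles are sample a, open triangles sample b, solid lines the means and dashed lines the mean array median. miR-34a lay above its day 0 values on all later arrays of both platforms, whereas miR-449a lay below them on Affymetrix and above them on Febit.

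miR-34a was the member that rose on both platforms. It is the most widely expressed member of the family in mouse tissues. On Affymetrix its VSN values were 5.04 and 5.83 at day 0, 8.65 and 7.78 at day 12, 8.40 and 7.68 at day 19, and 9.46 and 8.98 at day 26. All 6 cardiomyocyte arrays lay above both day 0 arrays. The increase over day 0 was 2.78 ± 0.51 at day 12 (log2 fold change ± SE, a 6.87-fold higher value, adjusted p = 0.00118). It was 2.61 ± 0.51 at day 19 (6.10-fold, adjusted p = 0.00183) and 3.78 ± 0.51 at day 26 (13.8-fold, adjusted p = 7.42e-05).

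The mean level of miR-34a on Affymetrix was highest at day 26, followed by days 12 and 19 and by day 0. Neighbouring days after day 0 were not told apart: day 19 differed from day 12 by -0.17 ± 0.51 (limma adjusted p = 0.909) and day 26 from day 19 by 1.17 ± 0.51 (adjusted p = 0.352). Other normalizations of the Affymetrix data were robust multi-array average (RMA), centring on the array median and quantile normalization. Under each of them the increase over day 0 was called at all 3 days. It was smaller after RMA, with 1.31, 1.40 and 1.85 at days 12, 19 and 26. With single arrays left out, the VSN increase was between 2.35 and 3.21 at day 12. At day 19 it was then between 2.22 and 3.0, and at day 26 between 3.39 and 4.18.

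On Febit the VSN values of miR-34a were 5.03 and 4.53 at day 0, 6.78 and 7.04 at day 12, 5.90 and 5.86 at day 19, and 6.65 and 7.17 at day 26. Here too the 6 later arrays lay above both day 0 arrays. The increase over day 0 was 2.13 ± 0.59 at day 12 (adjusted p = 0.0427) and 2.13 ± 0.59 at day 26 (adjusted p = 0.0496), whereas the 1.10 ± 0.59 at day 19 was not called (95% confidence interval -0.21 to 2.42, adjusted p = 0.324). Both calls were close to the threshold. They were lost when any array other than day 0 a was left out, with adjusted p between 0.0655 and 0.152 at day 12 and between 0.0671 and 0.229 at day 26.

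The raw Febit signals of miR-34a were close to the median of the miRNAs on the array. By the study's counts, most miRNAs were absent on Febit at days 0, 12 and 19. A signal near the median of those arrays is therefore no sign of detection. In the study's detection list miR-34a, miR-34b-3p and miR-34c* were present at least once on both platforms. The medians of the miR-34a features were 892 and 820 at day 0, 992 and 1024 at day 12, 888 and 872 at day 19, and 988 and 280 at day 26, the last on the dim array. In relation to the median of their array these were 0.929 and 0.880 at day 0, between 0.936 and 1.04 at days 12 and 19, and 0.992 and 1.23 at day 26. The ratio was thus lowest on the 2 day 0 arrays. The differences were small on the raw scale, on which no background was subtracted. After quantile normalization of the raw intensities the increase at day 12 was 0.37 (log2, adjusted p = 0.064), and it was not called.

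**Figure D2:**
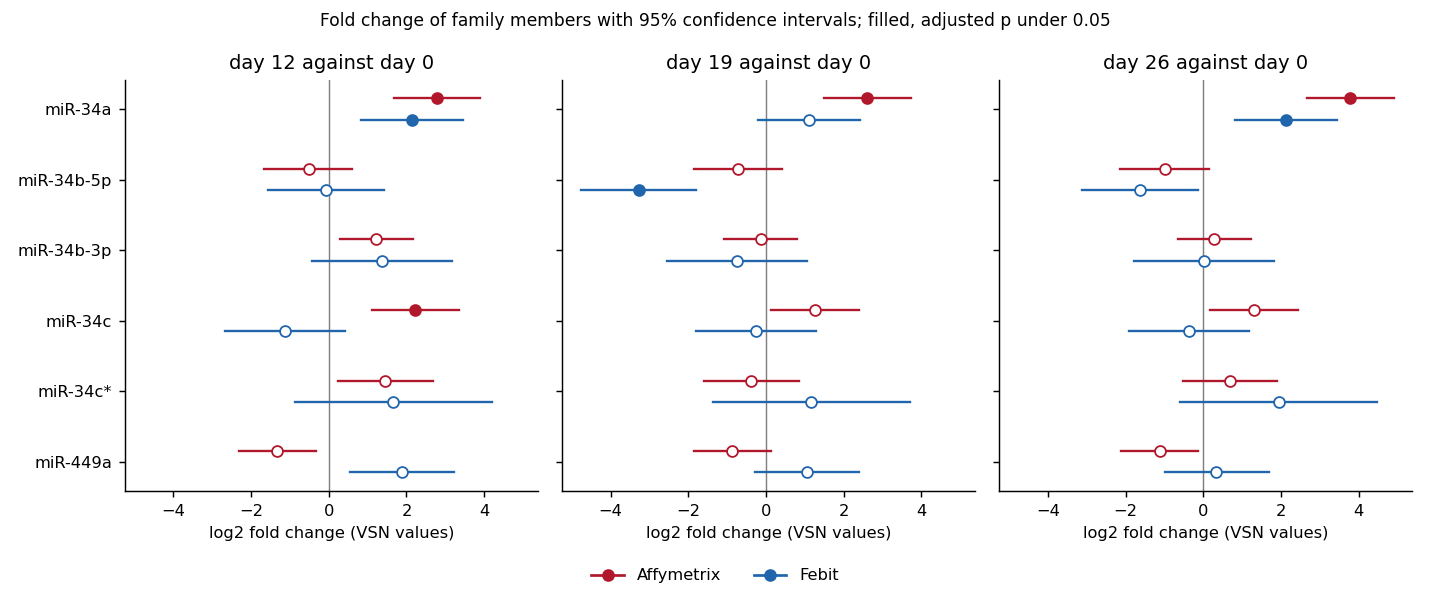
Log2 fold change of each member against day 0 at days 12, 19 and 26 with 95% confidence intervals (limma, VSN values, 2 arrays per day); filled points have an adjusted p under 0.05. miR-34a was called at all 3 days on Affymetrix and at days 12 and 26 on Febit, miR-34c at day 12 on Affymetrix, and miR-34b-5p, in the negative direction, at day 19 on Febit.

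miR-34c, the 5p strand of the hairpin next to that of miR-34b, rose at day 12 on Affymetrix. Its mature RefSeq sequence is not printed here. On Affymetrix the VSN values of miR-34c were 1.54 and 0.95 at day 0, 3.90 and 3.05 at day 12, 2.04 and 2.99 at day 19, and 2.86 and 2.25 at day 26. Every later array lay above both day 0 arrays, and day 12 had the highest mean. The increase at day 12 was 2.23 ± 0.52 (4.69-fold, adjusted p = 0.00602). With RMA values it was smaller, 0.69 ± 0.19, and still called (limma adjusted p = 0.0387). The call was lost without day 0 b (adjusted p = 0.0647) and without day 12 a (adjusted p = 0.0777). The differences at day 19 (1.27 ± 0.52, adjusted p = 0.0936) and day 26 (1.31 ± 0.52, adjusted p = 0.0806) were not called, nor was that between days 19 and 12 (-0.96 ± 0.52, adjusted p = 0.435).

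On Febit miR-34c had VSN values of 7.07 and 6.87 at day 0, 5.34 and 6.36 at day 12, 6.62 and 6.82 at day 19, and 7.34 and 5.86 at day 26. Here the arrays of days 12 and 19 lay below both day 0 arrays, the opposite side from Affymetrix. The difference at day 12 was -1.12 ± 0.69 (95% confidence interval -2.66 to 0.42, adjusted p = 0.34). The raw medians of miR-34c were between 0.912 and 1.09 times the array median, and on 7 of 8 arrays they lay between the lower and upper quartile of all miRNAs. In the study's own detection list miR-34c was absent on all Febit arrays and present on Affymetrix.

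The opposite strands miR-34b-3p and miR-34c*, which come from neighbouring hairpins and share a seed, had their highest Affymetrix means at day 12. The values of miR-34b-3p on Affymetrix were 2.96 and 2.83 at day 0, 4.29 and 3.94 at day 12, 2.97 and 2.55 at day 19, and 3.09 and 3.27 at day 26. Those of miR-34c* were 4.03 and 2.54 at day 0, 4.98 and 4.50 at day 12, 2.76 and 3.06 at day 19, and 3.51 and 4.44 at day 26. For both strands each day 12 array exceeded every other array in these VSN values. With RMA values this held for miR-34b-3p alone. The RMA value of miR-34c* was 5.63 on day 0 a, against 5.51 and 5.18 at day 12. None of the VSN differences was called. At day 12 against day 0 they were 1.22 ± 0.43 for miR-34b-3p (limma adjusted p = 0.0589) and 1.45 ± 0.56 for miR-34c* (adjusted p = 0.0795). From day 12 to day 19 they were -1.35 ± 0.43 for miR-34b-3p (adjusted p = 0.229) and -1.83 ± 0.56 for miR-34c* (adjusted p = 0.212).

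On Febit miR-34b-3p had values of 4.48 and 5.83 at day 0, 6.17 and 6.89 at day 12, 5.15 and 3.65 at day 19, and 4.39 and 5.96 at day 26. The 2 day 12 arrays were again the highest of the 8, with a difference from day 0 of 1.38 ± 0.81 (adjusted p = 0.313) and a step from day 12 to day 19 of -2.13 ± 0.81 (adjusted p = 0.1). The Febit values of miR-34c* were 5.30 and 7.95 at day 0, 9.93 and 6.65 at day 12, 7.80 and 7.80 at day 19, and 7.74 and 9.39 at day 26. At days 0 and 12 samples a and b of miR-34c* differed by 2.65 and 3.28, which exceeds every difference between day means, and its differences from day 0 had standard errors of 1.14. In the raw data the signal of miR-34c* was 1.88 times the array median on day 12 a, 2.98 times on day 26 b, and between 0.938 and 1.19 times on the other 6 arrays.

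miR-34b-5p, which shares its hairpin with miR-34b-3p and its seed with miR-34a, did not rise. On Affymetrix its values were 1.92 and 1.71 at day 0, 1.15 and 1.43 at day 12, 0.46 and 1.75 at day 19, and 1.21 and 0.43 at day 26, below the array median in every sample. No difference from day 0 was called, the one farthest from 0 being -0.99 ± 0.52 at day 26 (adjusted p = 0.18). On Febit the values were 6.03 and 7.55 at day 0, 6.44 and 6.97 at day 12, 3.42 and 3.58 at day 19, and 5.02 and 5.29 at day 26. Both day 19 arrays were lower than all others. miR-34b-5p fell by 3.28 ± 0.67 from day 0 to day 19 (adjusted p = 0.0149), and the change from day 12 to day 19 was -3.20 ± 0.67 (adjusted p = 0.0206).

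The raw Febit medians behind this call were 748 and 768 at day 19, or 0.789 and 0.824 of the array median, against 924 and 1040 at day 0. In the study's detection list miR-34b-5p was absent on every array of both platforms. Both day 19 arrays had more missing features (267 and 151) than the 14 of the array with the fewest, but all 8 features of miR-34b-5p had a value on both. The call against day 0 was lost without day 19 a (adjusted p = 0.171) and without day 19 b (adjusted p = 0.116), and with raw intensities (-0.36, adjusted p = 0.189). The call against day 12 was lost without any of the arrays of days 12 and 19, with adjusted p between 0.0734 and 0.153.

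**Figure D3:**
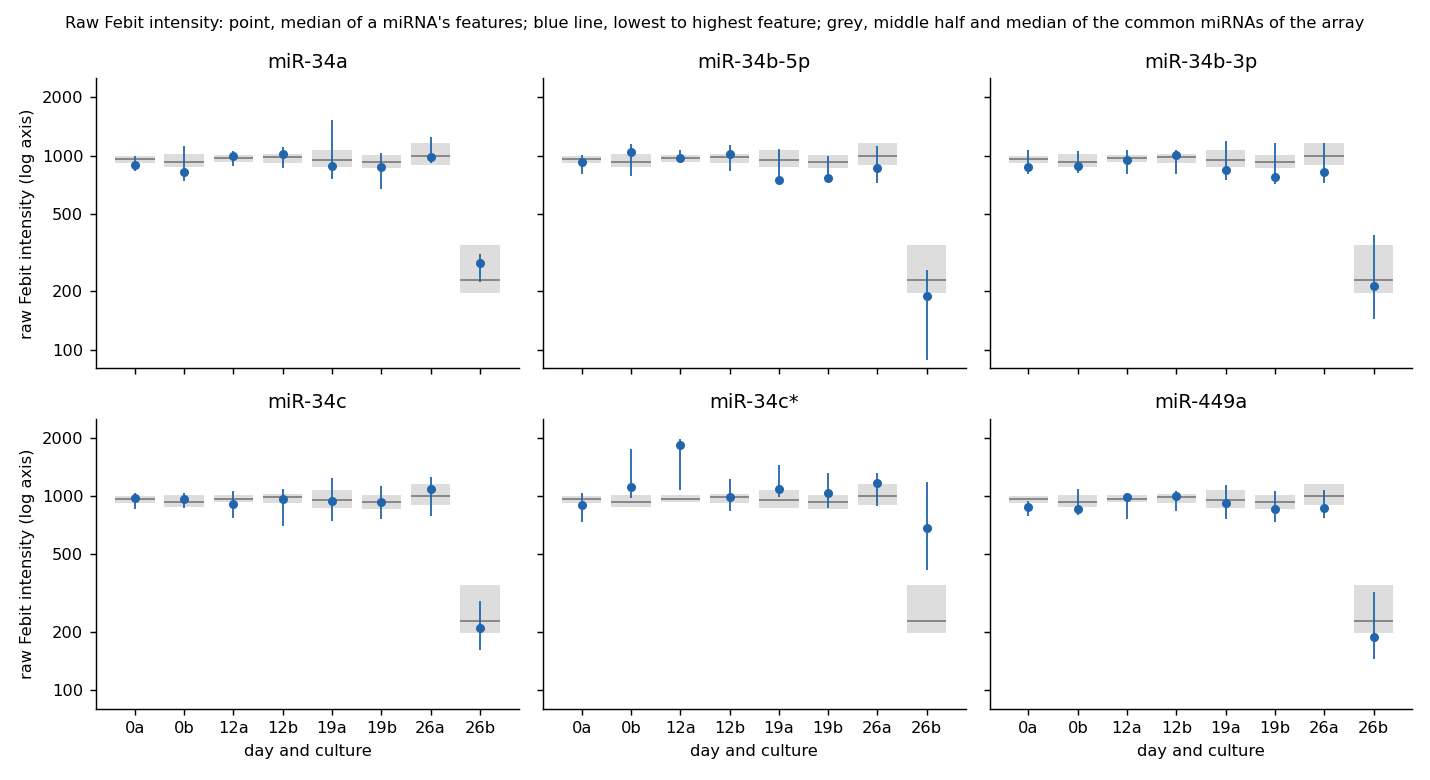
Raw Febit intensities (log axis) of the 6 members on each of the 8 arrays; points are the median of the features, blue lines run from the lowest to the highest feature, and grey boxes show the lower quartile, median and upper quartile of 608 miRNAs on that array. Except for miR-34c* on day 12 a and day 26 b, the members lay between 0.789 and 1.23 times the median of their array.

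miR-449a, the member from the Cdc20b locus, moved to opposite sides of day 0 on the 2 platforms. On Affymetrix its values were 1.62 and 1.84 at day 0, 0.60 and 0.20 at day 12, 0.89 and 0.84 at day 19, and 1.0 and 0.22 at day 26. On Febit they were 4.62 and 5.20 at day 0, 6.78 and 6.82 at day 12, 6.32 and 5.61 at day 19, and 5.21 and 5.29 at day 26. All later Affymetrix arrays lay below, and all later Febit arrays above, both day 0 arrays of their platform. At day 12 the difference was -1.33 ± 0.46 on Affymetrix (adjusted p = 0.0502) and 1.89 ± 0.60 on Febit (adjusted p = 0.0698), so that neither was called. The share of all miRNAs that lay on opposite sides of day 0 on the 2 platforms was not counted.

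The Affymetrix values of miR-449a were below the array median throughout, and its raw Febit medians were between 0.825 and 1.02 times the array median. The study's list has miR-449a as absent on all arrays of both platforms. The 2 other names with a miR-449 label behaved without a call as well. miR-449b differed from day 0 by between -0.19 and 0.23 on Affymetrix and between 0.22 and 1.32 on Febit, and miR-449c by between -0.52 and -0.05 on Affymetrix and between -1.19 and 0.64 on Febit. RefSeq lists an older symbol, Mirn449b, for both Mir449b and Mir449c, and no sequence is set beside these names here.

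Across the 8 arrays, the VSN values of a member on the 2 platforms had a Pearson correlation of 0.835 for miR-34a, 0.758 for miR-34b-3p, 0.394 for miR-34b-5p, 0.218 for miR-34c*, -0.515 for miR-34c and -0.632 for miR-449a. These are descriptions over 8 shared RNA samples of 4 days, with no test. Among members on Affymetrix, the closest pair was miR-34b-3p and miR-34c* (0.826), the strands with the shared seed, and the pair from opposite arms of the miR-34b hairpin had -0.214. On Febit the corresponding correlations were 0.295 and 0.665.

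By the same measure, the miRNAs most like miR-34a on Affymetrix among the 608 were miR-128 (0.994), miR-30b (0.992) and miR-27a (0.990). The Febit correlations of these pairs were -0.423, 0.828 and 0.819. Since these miRNAs were picked by their Affymetrix values, their Affymetrix differences are a description with no test. At day 26 these were 5.28 for miR-30b, 4.15 for miR-27a and 3.42 for miR-128 (log2, against day 0). On Febit, miR-30b rose by 4.99 ± 0.65 (adjusted p = 0.000952) and miR-27a by 3.61 ± 0.69 (adjusted p = 0.00815), while the difference of miR-128 was 0.12 ± 0.64 (adjusted p = 0.968). For miR-34c the 3 closest on Affymetrix were miR-138 (0.931), miR-342-5p (0.896) and miR-122 (0.894), and the Febit correlations of these pairs were -0.060, 0.858 and 0.439. Their Affymetrix differences at day 12, again with no test, were 2.95 for miR-138, 1.46 for miR-342-5p and 3.37 for miR-122, and on Febit none of the 3 was called at day 12.

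Other miRNAs linked to p53 in mammalian cells were set beside miR-34a. This list held 8 miRNAs: miR-192, miR-194 and miR-215, which p53 is known to induce in human cells, miR-143, miR-145 and miR-16, whose maturation p53 promotes together with Drosha, miR-107 and miR-15a. The list was written with earlier results of these data known, and the paper already reports a rise of miR-143 and miR-145. Its counts are therefore a description and no independent test. On Affymetrix 5 of 8 rose at day 12, 5 at day 19 and 6 at day 26, with median log2 differences of 2.17, 1.69 and 2.47. On Febit 2 of 8 rose at each day, with medians of 1.35, 1.47 and 1.82, and none was called lower on either platform. Of all 608 miRNAs, 124, 112 and 141 were called higher on Affymetrix at days 12, 19 and 26, and 28, 26 and 47 on Febit. In either direction, 25.3%, 27.1% and 31.4% were called on Affymetrix, and 12.3%, 7.24% and 9.21% on Febit. The lowest differences, neither of them called, were -1.40 for miR-192 on Febit and -0.52 for miR-215 on Affymetrix, both at day 19. The medians over all 608 miRNAs, given above, were between -0.05 and 0.24 (log2).

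miR-143 and miR-145, which are transcribed together and known from smooth muscle and the early heart, were the 2 that rose on both platforms. At day 26 the increase was 6.91 ± 0.46 on Affymetrix and 7.41 ± 0.72 on Febit for miR-143 (adjusted p = 2.54e-07 and 0.000172). For miR-145 it was 5.00 ± 0.45 and 5.83 ± 0.76 (adjusted p = 2.13e-06 and 0.000952). Without these 2, the rise of miR-194 (3.20 ± 0.47, adjusted p = 0.000154), miR-192 (2.60 ± 0.51, adjusted p = 0.00139), miR-107 (2.35 ± 0.44, adjusted p = 0.00105) and miR-16 (2.34 ± 0.43, adjusted p = 0.000938) at day 26 was called on Affymetrix alone. These rises were smaller with RMA values. The RMA means at days 0 and 26 were 10.37 and 10.57 for miR-107, whose arrays overlapped, and 8.69 and 8.94 for miR-16. Those of miR-194 were 4.15 and 5.44, and those of miR-192 were 4.08 and 4.89. The Febit differences of miR-194 (1.98 ± 0.63, adjusted p = 0.0861), miR-107 (3.01 ± 1.15, adjusted p = 0.156) and miR-16 (1.61 ± 0.62, adjusted p = 0.156) had the same sign, and that of miR-192 was -0.86 ± 0.78. miR-215 and miR-15a were not called at any day on either platform.

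**Figure D4:**
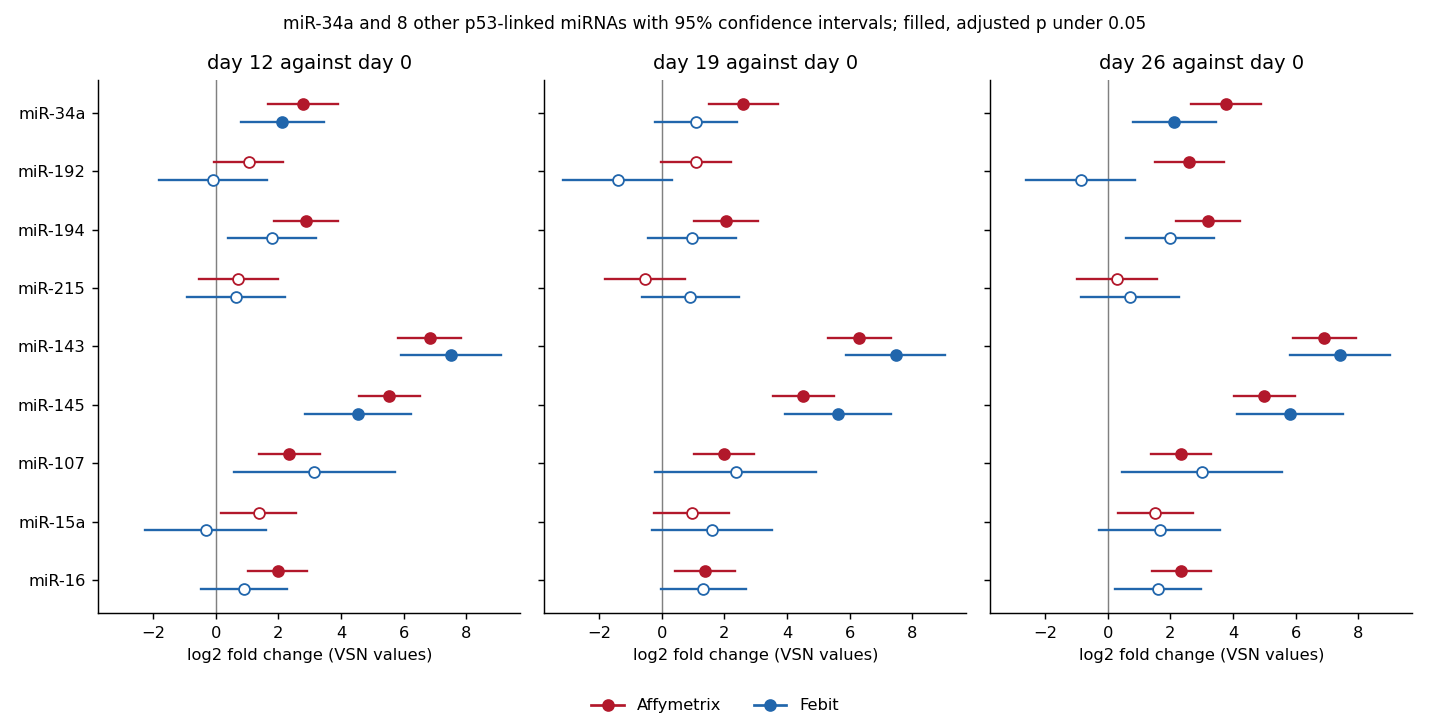
Log2 fold change against day 0 of miR-34a and the 8 other p53-linked miRNAs with 95% confidence intervals (limma, VSN values); filled points have an adjusted p under 0.05. miR-143 and miR-145 were higher by 4.51 or more on both platforms at every day, and miR-34a lay among the other p53-linked miRNAs that rose on Affymetrix.

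Feeder fibroblasts and other cells could contribute to these samples, and the markers of such cells were read beside the members. Of 4 fibroblast miRNAs, none was called at day 12 on either platform, miR-199b was higher at day 26 on Affymetrix (1.96 ± 0.57, adjusted p = 0.0183), and miR-199a-3p was lower at day 19 on Febit (-3.03 ± 0.63, adjusted p = 0.0157). The mean level of the 4 on Affymetrix ranged from 3.07 to 4.84 at day 0, 3.01 to 3.58 at day 12, 2.44 to 2.99 at day 19 and 4.30 to 5.24 at day 26, and on Febit from 7.14 to 7.20 at day 0, 7.39 to 8.22 at day 12, 6.08 to 6.33 at day 19 and 6.64 to 6.82 at day 26. No marker of endothelium (2) or blood (4) was called against day 0. From day 12 to day 19 on Febit, where miR-34b-5p was called lower, the fibroblast marker miR-199a-3p (-2.27 ± 0.63, adjusted p = 0.0394) and the endothelial marker miR-126-5p (-2.64 ± 0.62, adjusted p = 0.021) were called lower too. Of 5 epithelial markers, which are shared by ciliated epithelia, miR-200b was lower at day 19 on Affymetrix (-2.01 ± 0.64, adjusted p = 0.0337) and no other was called against day 0. The part of such cells in the values of the members was not tested. In bulk RNA, fewer cells with a miRNA and less of it per cell cannot be told apart.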

How the data were processed

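Values were read as deposited. Affymetrix arrays were given by the authors as log2 values after RMA and after VSN, and Febit arrays as log2 values after VSN and after a non-VSN treatment, which the study's methods describe as quantile normalization, with 8 arrays per data set (2 samples at days 0, 12, 19 and 26). Raw Febit intensities, deposited per feature, were summarised as the median of the features of a miRNA. Arrays were normalized by the authors within a platform, so levels were not compared across platforms, and only differences from day 0 and correlations over the 8 arrays were set side by side. For miR-34a on Febit at day 12 the log2 difference from day 0 was 2.13 with VSN values and 0.37 with quantile-normalized raw intensities. No background was subtracted from these raw intensities, whereas the study's methods describe background-subtracted values, so the 2 differences are unlike measures. For 2 arrays of the non-VSN Febit set, titled day 12 a and day 19 b, the values follow the raw array of each other (Spearman correlation 1.0, against 0.187 with their own title), and the VSN arrays follow their own titles.

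VSN values of the 608 common miRNAs were fitted with limma 3.58.1 (R 4.3.3), a mean per day, 1 fit per platform and 6 comparisons, after a test on simulated data. A microarray gives no counts, and the number of arrays limits the precision. P-values rest on the spread between samples a and b, pooled over all days and moderated by the spread of all tested miRNAs. No scan date or slide was used. The members and lists were chosen with earlier results of these data known. Named were all members, all miRNAs of the lists and the 3 miRNAs closest to each member called on Affymetrix. Alternatives were the other normalizations, raw intensities, the 485 miRNAs that the study lists as present at least once, all miRNAs of an array, array centring, quantile normalization, leaving out each array, and the letters a and b as a block.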

Additional observations from a re-analysis of the deposited data

Results flagged for a closer look

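miR-34c and miR-449a were noted because their arrays lay on opposite sides of both day 0 arrays on the 2 platforms, although the same RNA was hybridised. This held at days 12 and 19 for miR-34c and at days 12, 19 and 26 for miR-449a. The share of all miRNAs with such a split was not counted. For miR-34c the log2 difference from day 0 was 2.23 on Affymetrix and -1.12 on Febit at day 12, and 1.27 and -0.25 at day 19. For miR-449a it was -1.33 on Affymetrix and 1.89 on Febit at day 12, -0.87 and 1.06 at day 19, and -1.12 and 0.34 at day 26. The difference between the platforms was not tested, since their scales differ, and of these values only the Affymetrix value of miR-34c at day 12 was called. With 2 arrays per day, the normalized values give no way to tell which array of a pair stands apart. In the raw Febit data day 26 b was dimmer than day 26 a, with array medians of 228 and 996.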

How the results depend on the processing

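Of 599 recalculated differences of single members, 536 kept their direction and their side of the threshold, 36 lost a call, 9 gained one and 18, none of them a call on either side, changed sign. The rise of miR-34a on Affymetrix was called at every day under all 14 alternatives, with log2 differences from 1.31 to 3.21 at day 12, 1.40 to 3.0 at day 19 and 1.85 to 4.18 at day 26. The Febit calls were less stable: that of miR-34a held under 6 of 16 alternatives at day 12 and 3 of 16 at day 26, and that of miR-34b-5p under 11 of 15 against day 0 and 8 of 15 against day 12.

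With non-VSN Febit values by title and with raw intensities, 0 members were called at days 12, 19 and 26 and between days 12 and 19. With the 2 non-VSN arrays exchanged the count was 0 at day 26 and between days 12 and 19. Among miRNAs present at least once it was 0 on Febit at day 19 and between days 12 and 19, since miR-34b-5p is then not tested. With every miRNA of the array it was 0 at day 26, and with quantile normalization 2 at day 12 and 0 at day 26. On Affymetrix, centring on the array median gave 2 members at day 26, the added one being miR-449a (-1.38, limma adjusted p = 0.0337). Of the other p53-linked miRNAs, 3 were called on Affymetrix at days 12 and 19 with quantile normalization and 3 at day 19 with RMA, and 1 on Febit at day 12 with raw intensities.

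Uncalled differences from day 0 changed sign for miR-34b-3p (-0.04 with RMA and -0.46 with quantile normalization) and miR-34c* (-0.12 and -0.17) on Affymetrix at day 26. On Febit this held for miR-34b-5p at day 12 (0.08 with exchanged arrays, 0.01 with raw intensities, 0.06 with centring and 0.27 with quantile normalization) and miR-34b-3p at day 19 (0.17 with non-VSN values by title). The cause was not tested.

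The labels and the study's methods do not say whether samples with the same letter, a or b, belong together across days. Deviations of equal letters correlated between -0.149 and 0.302 over all miRNAs, which cannot decide this. With the letter as a replicate block, Febit had 0 members called at days 12 and 26 and still 1 at day 19, and Affymetrix had 3 at day 12, with miR-449a added (-1.33, limma adjusted p = 0.0497).

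Leaving out 1 array leaves a day with a single sample, which is then assumed to vary like the other days. The members called then ranged from 1 to 3 on Affymetrix at day 12 (1 without day 0 b or day 12 a, 3 without day 0 a). On Febit they ranged from 0 to 1 at day 12 (0 without any array of days 12, 19 or 26), from 0 to 1 at day 19 (0 without day 19 a or b), from 0 to 2 at day 26 (2 without day 0 a and 0 without any other) and from 0 to 2 between days 12 and 19 (2 without day 0 a or b and 0 without any array of days 12 or 19). The other p53-linked miRNAs ranged from 3 to 5 on Affymetrix at day 19 (3 without day 19 a) and from 2 to 4 on Febit at days 19 and 26 (4 without day 0 b). Signs changed in the ranges -0.34 to 0.08 for miR-34b-3p and -1.12 to 0.37 for miR-34c* at day 19 and -0.06 to 1.43 for miR-34c* at day 26 on Affymetrix, and on Febit -0.84 to 0.68 for miR-34b-5p at day 12, -0.15 to 2.50 for miR-34c* at day 19, -0.76 to 0.81 for miR-34b-3p and -1.11 to 0.37 for miR-34c at day 26.

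The number of arrays, 2 per day and platform, limits the precision of all these values.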
